A study of Mus musculus with 4 samples.

Results

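The 44 genes described here encode enzymes of the citric acid cycle and subunits of the respiratory chain. They were taken from a list of gene symbols, and each was represented by the brightest probe set of that single symbol, by mean log2 signal on the 4 arrays. All 44 had such a probe set, among 18193 genes with a probe set of 1 symbol. The list splits into 18 genes of the cycle, with complex II counted there, and 26 genes of complex I, III, IV and ATP synthase. The RNA came from thioglycollate-elicited peritoneal macrophages, an irritant-induced exudate from which the cells that attached in culture were used. The mice carried the strain label C57BL6/J and Setdb1 fl/fl alleles in both genotypes. WT mice were +/+:Setdb1 fl/fl, and KO mice were LysM Cre/+:Setdb1 fl/fl, in which Cre is driven by the LysM promoter of myeloid cells and removes Setdb1, a histone H3K9 methyltransferase. Cells of each genotype received vehicle or lipid A, the active part of LPS, for 4 h, and each of the 4 conditions was measured on 1 Affymetrix Mouse Genome 430 2.0 array. The series design puts the concentration at 10 ng/ml, while the sample labels put it at 10 µg/ml. The age and sex of the mice, and whether mice were pooled, are not stated in the sources used here.

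The citric acid cycle oxidizes acetyl groups in the mitochondrial matrix and hands electrons to NAD and FAD. Complex I takes electrons from NADH and complex II, which is succinate dehydrogenase and also an enzyme of the cycle, takes them from succinate. Ubiquinone carries them to complex III and cytochrome c to complex IV, which reduces oxygen, and ATP synthase uses the proton gradient built on the way. In macrophages activated through TLR4, the cycle is known for breaks at which citrate and succinate accumulate and itaconate is made from cis-aconitate. The arrays measure transcripts, not enzyme activity or metabolites.

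Because each condition has 1 array, the differences below have no replicate check and no test, and the number of arrays limits the precision. The deposited values are linear probe set signals, and with 2% of them trimmed from either end, their mean was 500.004 on all arrays. A log2 difference compares the same probe set between 2 arrays, and signals of different genes are not compared. Detection was judged for each comparison by the brighter of the 2 signals, which had to reach its array's median, a level of 65.1 to 84.2. These array medians differed by 0.20 on the log2 scale for lipid A over vehicle in WT, by -0.15 in KO, and by 0.37 and 0.02 for KO over WT under vehicle and lipid A. All 44 genes were detected in all 4 comparisons, with signals between 283.9 and 32938. As a technical measure, the log2 differences of probe sets of the same gene had a pooled SD of 0.25 for lipid A over vehicle in WT, 0.23 in KO, 0.30 for KO over WT under vehicle and 0.29 under lipid A, over 59 probe sets of 24 of the genes. This spread leaves out differences between mice and between cultures.

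Setdb1 gave 589 and 521 on the WT arrays with vehicle and lipid A, and 346 and 386 on the KO arrays, so KO was lower by 1.70-fold and 1.35-fold. The place of this probe set relative to the deleted exons is unknown here, and it does not check the labels. All 9 macrophage markers on the list reached the array median on each of the 4 arrays, with summed signals of 174370 to 224210. Markers of other cells differed with the genotype. Summed signals of 7 B cell markers were 2400 and 2328 in the WT arrays and 5568 and 5094 in the KO arrays. For 7 markers of large peritoneal macrophages they were 622 and 645 in WT against 3726 and 3449 in KO, with Timd4 and Alox15 below the median on all 4 arrays. For 8 markers of mesothelium and fibroblasts they were 1725 and 1475 in WT against 901 and 701 in KO, with Krt19 and Upk3b below it throughout. For 7 neutrophil markers they were 1942 and 1975 against 1021 and 922, with S100a9 below it throughout, and for 6 T and NK cell markers 171 and 362 against 461 and 611, with Ncr1 below it throughout. The neutrophil markers went both ways. Under vehicle, 2 of 5 detected were over 1.5-fold higher and 2 lower in KO, and under lipid A 1 of 3 was higher and 2 lower. The 3'/5' signal ratio of actin, a sign of RNA integrity, was 1.79 to 2.19, and that of Gapdh was 0.945 to 1.35 with the highest value in KO vehicle. The part of these differences in the values below was not tested, and in RNA of whole cultures, fewer cells of a type and less RNA per cell cannot be told apart.

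Judged by 1 probe set for each gene, the brightest, transcripts of the cycle and the chain were mostly steady across the 4 arrays, apart from 3 genes. By the brightest probe set, Idh1, Idh2 and Mdh1 passed a 1.5-fold difference in at least 1 of the 4 comparisons, always downward, and the other 41 genes passed it in none. Of these 3 genes, Idh1 and Mdh1 encode cytosolic enzymes, and Idh2 encodes a mitochondrial isocitrate dehydrogenase that uses NADP in place of NAD. Some dimmer probe sets of the 41 genes did pass it, among them 1.63-fold for Sdha and 1.79-fold for Ndufv2, both lower with lipid A in KO. Over the 41 genes, the ratio of the highest to the lowest of the 4 signals had a median of 1.26. It was lowest for Uqcrq at 1.10, Cyc1 at 1.10 and Cox7a2 at 1.11, and highest for Sdhc at 1.53, Fh1 at 1.56 and Ndufb5 at 1.58. The heat map of log2 differences holds all 44 genes in the 4 comparisons.

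**Figure D1:**
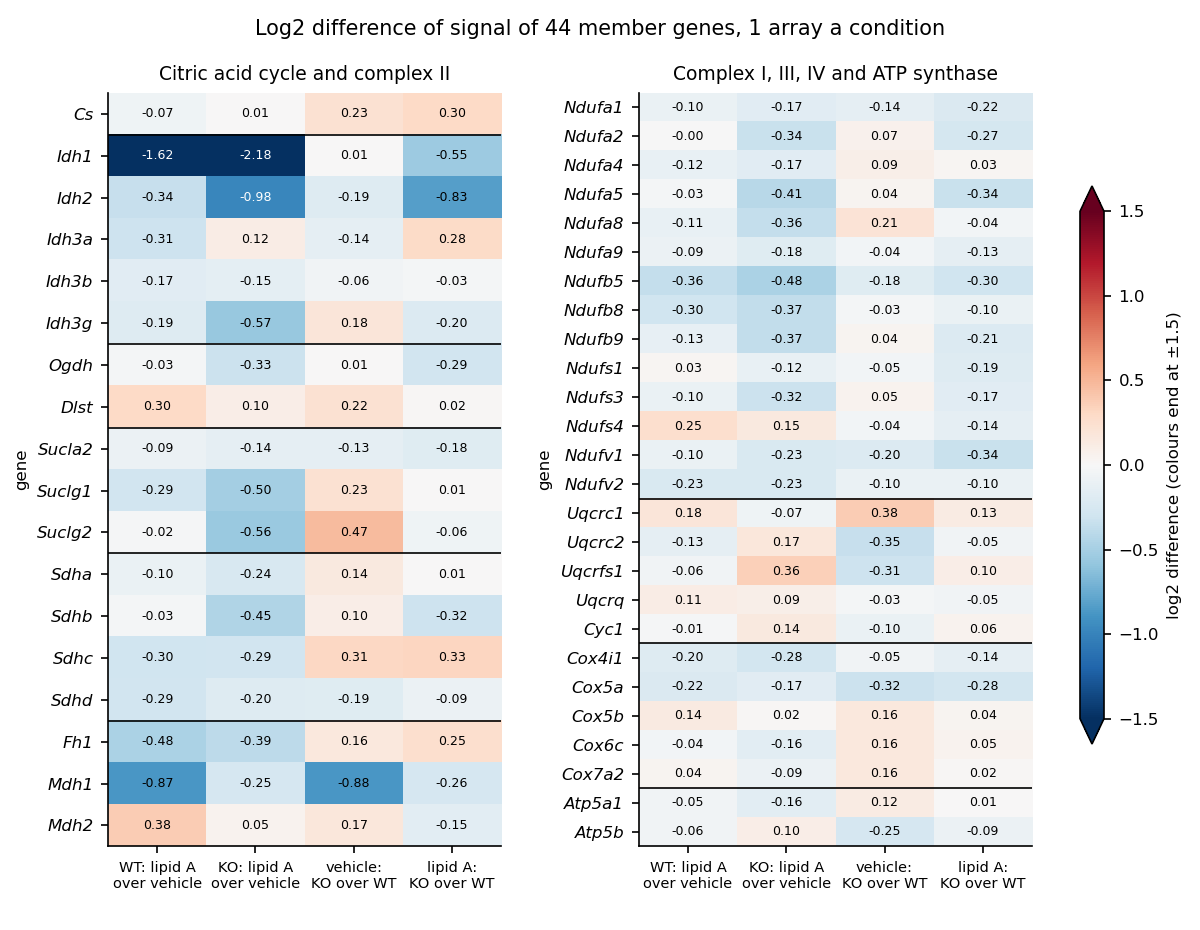
Log2 difference of signal for each of the 44 genes (rows) in 4 comparisons (columns), with 1 array for each condition, for the cycle with complex II on the left and for complex I, III, IV and ATP synthase on the right. Horizontal lines separate enzymes and complexes, blue is lower and red higher in the condition named first, and Idh1 under lipid A is the darkest row, with -1.62 in WT and -2.18 in KO.

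In WT macrophages, 36 of the 44 genes were lower with lipid A than with vehicle, mostly by small amounts, while 56.5% of the 12129 detected genes were lower. The median log2 difference was -0.10 for the 44 genes and -0.08 for all detected genes. Idh1 and Mdh1 were over 1.5-fold lower, or 2 of 44, and 0 genes were over 1.5-fold higher, against 18.9% of detected genes lower and 18.2% higher. Over 2-fold, 1 gene was lower, Idh1, where 8.94% of detected genes were. Among the 6004 detected genes with a mean signal of at least 500, a level that 42 of the 44 reached, the shares over 1.5-fold were 11.6% lower and 10.3% higher. Differences of 32 of the 44 genes lay within the SD between probe sets. The SD over the 44 differences was 0.31, and over the bright genes it was 0.77. The lower and upper quartiles were -0.22 and -0.03 for the 44 genes, and -0.35 and 0.17 for the bright genes. With each array centred on the median of its probe sets, 41 of the 44 genes were lower, and the shares of all detected genes were 28.2% lower and 14.6% higher.

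In KO macrophages, 33 of the 44 genes were lower with lipid A, beside 60.6% of the 12293 detected genes, and the median log2 difference was -0.19 for the 44 genes and -0.20 for all. Idh1 and Idh2 were over 1.5-fold lower and 0 genes were over 1.5-fold higher, where 29.7% of detected genes were lower and 17.7% higher. Idh1 was the 1 gene over 2-fold lower, against 16.0% of detected genes, and Idh2 fell just short at 1.98-fold. Among the 6004 bright genes, 22.0% were over 1.5-fold lower and 13.9% higher. By more than the SD between probe sets, 21 of the 44 genes were lower and 1 was higher. With arrays centred on their medians, 28 of the 44 were lower, and 23.6% of all detected genes were lower and 21.8% higher by over 1.5-fold. The 3 members nearest to the threshold without passing it were Idh3g at 1.48-fold, Suclg2 at 1.47-fold and Suclg1 at 1.42-fold, all lower.

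Under vehicle, the genes were spread about evenly around 0 between the genotypes, with 21 of 44 lower in KO, beside 41.9% of the 12002 detected genes. The medians were 0.01 for the 44 genes and 0.10 for all detected genes. Mdh1 was over 1.5-fold lower in KO and 0 genes were higher, against 11.3% lower and 20.0% higher among detected genes, and 7.17% and 6.42% among the 5994 bright ones. Over 2-fold, 0 of the 44 genes were lower, where 6.17% of detected genes were. The direction here depended on the scaling. With arrays centred on their medians, 42 of the 44 genes were lower in KO with a median of -0.36, and with arrays centred on ribosomal protein genes, 41 were lower with a median of -0.28. By over 1.5-fold, 25.4% of all detected genes were then lower and 11.7% higher by the first, and 20.9% and 13.0% by the second. The median of the 44 genes minus that of all detected genes was -0.09 by the deposited scaling and by both of these, and 0.01 after quantile normalization.

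Under lipid A, 29 of the 44 genes were lower in KO than in WT, beside 50.8% of the 12335 detected genes, with a median of -0.10 for the 44 and -0.01 for all. Idh2 was over 1.5-fold lower and 0 genes were higher, against 19.1% lower and 17.8% higher among detected genes, and 11.6% and 7.79% among the 6005 bright ones. Over 2-fold, 0 of the 44 were lower, where 10.3% of detected genes were. Within the SD between probe sets lay 35 of the 44 genes. Centred on ribosomal protein genes, 40 of 44 were lower with a median of -0.33, and 28.5% of all detected genes were lower and 13.1% higher by over 1.5-fold. The plot of shares of genes by size of difference sets the 44 genes beside the bright genes in each comparison.

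**Figure D2:**
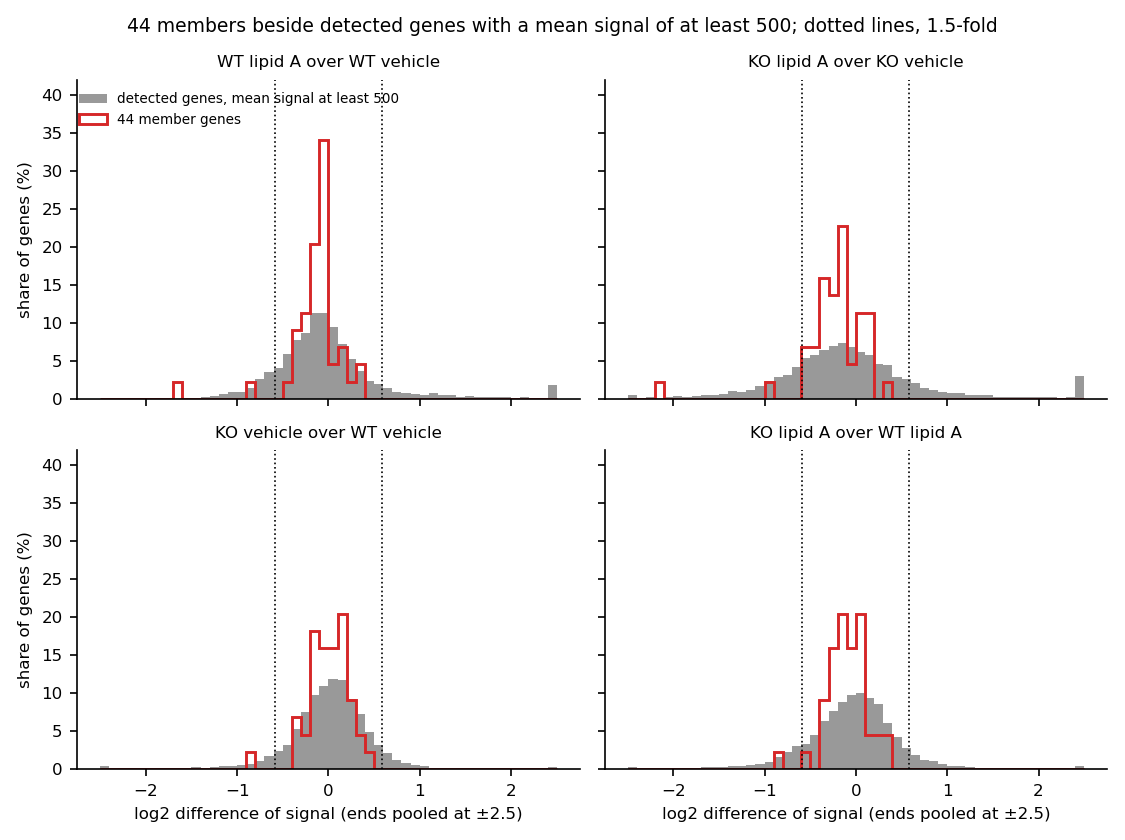
Share of genes (%) by log2 difference of signal in 4 comparisons, for the 44 genes (red line) and for detected genes with a mean signal of at least 500 (grey bars), with differences past ±2.5 pooled at the ends and dotted lines at 1.5-fold. The red line lies mostly between the dotted lines, apart from Idh1 and Mdh1 in WT, Idh1 and Idh2 in KO, Mdh1 between the genotypes under vehicle and Idh2 between them under lipid A.

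With lipid A, Idh1 had the largest difference of the 44 genes in both genotypes. Its product makes NADPH and 2-oxoglutarate in the cytosol and peroxisomes, and its signals were 10029 with vehicle and 3255 with lipid A in WT, and 10084 and 2223 in KO. Both lipid A arrays were thus below both vehicle arrays, while the vehicle arrays of the genotypes were nearly equal. The difference by lipid A was 3.08-fold in WT and 4.54-fold in KO, and KO was 1.46-fold lower than WT under lipid A. Of the detected genes, 526 of 12129 in WT and 586 of 12293 in KO were as low as Idh1 or lower, and of the bright genes 23 and 49 of 6004. The other probe set of Idh1 gave 5834, 1398, 4269 and 831 in the same order, or 4.17-fold and 5.14-fold lower with lipid A, and KO was 1.37-fold lower under vehicle and 1.68-fold lower under lipid A by it. Both probe sets carry the array maker's mark for probes shared between several transcripts.

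Idh2, the NADP-linked enzyme of the mitochondria, gave 640 with vehicle and 505 with lipid A in WT, and 561 and 284 in KO. The KO lipid A array stood apart from the other three, being 1.98-fold lower than KO vehicle and 1.78-fold lower than WT lipid A, whereas lipid A over vehicle in WT was 1.27-fold lower. A dimmer probe set gave 98.2, 89.0, 171 and 80.2, which repeats the lower signal with lipid A in KO at 2.14-fold, but has KO vehicle 1.75-fold above WT vehicle and a difference of 1.11-fold between the genotypes under lipid A. The genotype difference of Idh2 under lipid A therefore rests on its brighter probe set. Of all 44 genes, Idh2 had the lowest value of the KO response minus the WT response at -0.64, and Mdh1 the highest at 0.62.

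The NAD-linked isocitrate dehydrogenase, which works in the cycle itself, is built from the products of Idh3a, Idh3b and Idh3g. Its catalytic subunit gene Idh3a gave 2112, 1709, 1920.4 and 2081.5. These and later signals are in the order vehicle and lipid A of WT, then the same of KO. With lipid A it was lower in WT by 1.24-fold and higher in KO by 1.08-fold. Idh3b lay between 3748 and 4316 and was lower with lipid A in both genotypes, by 1.13-fold and 1.11-fold. Idh3g gave 3293, 2892, 3722 and 2511, with its lowest signal in KO lipid A.

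Promoter windows are printed for the 3 genes that passed 1.5-fold, so that the sequence can be set beside the values above. They come from RefSeq on build GRCm38.p6, and each runs from 250 bases before to 50 bases after an annotated start, read 5′ to 3′ along the minus strand, on which all 3 genes lie. Capitals mark CCAAT, a motif bound by the factor NF-Y. Idh1 has windows at chr1:65179093-65179392 and chr1:65186430-65186729, Idh2 at chr7:80115301-80115600 and Mdh1 at chr11:21571885-21572184.
Idh1, first window: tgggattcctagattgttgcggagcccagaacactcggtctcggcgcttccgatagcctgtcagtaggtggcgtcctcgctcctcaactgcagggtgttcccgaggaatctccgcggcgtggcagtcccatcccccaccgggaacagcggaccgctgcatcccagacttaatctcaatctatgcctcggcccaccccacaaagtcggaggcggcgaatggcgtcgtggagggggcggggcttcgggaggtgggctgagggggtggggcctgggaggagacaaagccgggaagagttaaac
Idh1, second window: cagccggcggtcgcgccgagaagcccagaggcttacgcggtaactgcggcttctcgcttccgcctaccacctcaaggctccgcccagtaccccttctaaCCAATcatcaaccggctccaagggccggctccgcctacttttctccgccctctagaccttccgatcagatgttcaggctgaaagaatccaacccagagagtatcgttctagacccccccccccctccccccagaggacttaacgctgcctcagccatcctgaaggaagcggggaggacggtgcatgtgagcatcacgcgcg
Idh2: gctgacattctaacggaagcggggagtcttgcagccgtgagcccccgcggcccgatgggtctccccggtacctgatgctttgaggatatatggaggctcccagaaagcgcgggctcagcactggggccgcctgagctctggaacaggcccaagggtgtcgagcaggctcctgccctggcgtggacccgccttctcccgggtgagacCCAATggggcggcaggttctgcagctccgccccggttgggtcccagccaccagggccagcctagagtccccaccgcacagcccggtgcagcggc
Mdh1: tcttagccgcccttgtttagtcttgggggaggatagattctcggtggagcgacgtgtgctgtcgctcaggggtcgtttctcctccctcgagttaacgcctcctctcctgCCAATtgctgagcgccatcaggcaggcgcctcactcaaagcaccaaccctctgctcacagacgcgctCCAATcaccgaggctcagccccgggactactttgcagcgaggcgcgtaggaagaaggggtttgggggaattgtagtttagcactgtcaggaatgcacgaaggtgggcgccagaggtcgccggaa
The first window of Idh1 held none of the motifs searched, the second and that of Idh2 held 1 CCAAT each, and that of Mdh1 held 2.

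Windows were found for 33 of the 44 genes, 40 in all, among 32851 in the table, and 6 motifs were searched on both strands. CCAAT was in 16 of the 40 windows, or 40.0%, against 37.4% of all windows, and in 11 genes, among them Cs, Fh1, Sdha, Sdhb and Atp5b besides the 3 above. The core of NRF1, GCATGCGC, was in 12.5% of the windows and in Ndufa8, Ogdh, Sdhb and Uqcrc1, against 2.71% of all windows. The YY1 motif AAGATGGCG was in 7.5% and in Idh3g, Ndufa9 and Ndufs4, against 1.4% of all, and the ETS motif CCGGAAGT was in 5.0% and in Dlst and Ndufs3, against 3.89%. NRF1, YY1 and the ETS factor GABP are known regulators of nuclear genes for mitochondrial proteins. The sterol element core TCACCCCAC and the NF-kB motif GGGANTTTC were in 0 of the 40 windows, against 0.551% and 1.11% of all, which says only that these letters are not in these windows. Matches of different motifs overlapped in 0 windows, and a match is a description of the letters, not a binding site.

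**Figure D3:**
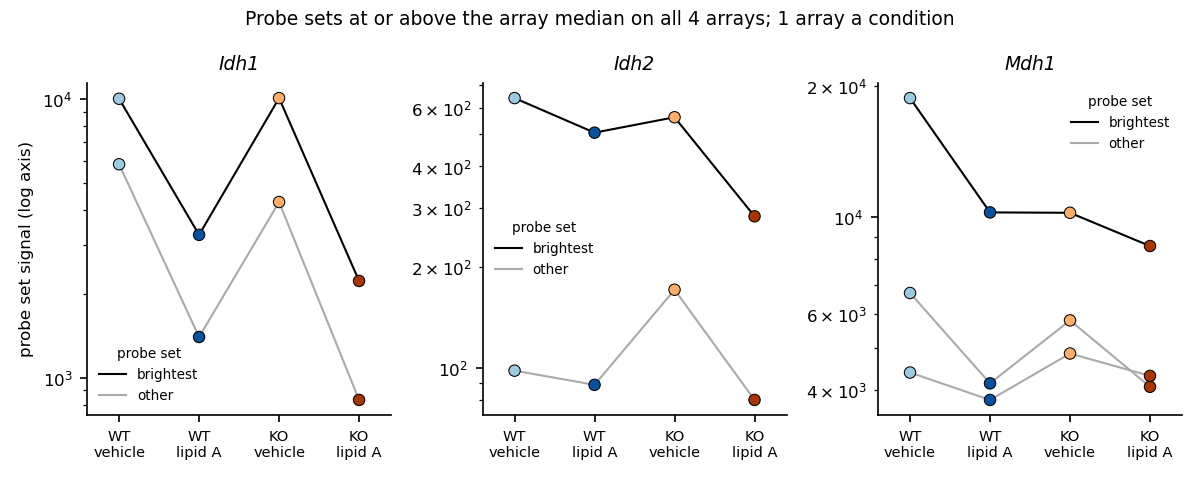
Signal (log axis) of each probe set of Idh1, Idh2 and Mdh1 that reached the array median on all 4 arrays, with 1 point for each condition, black lines for the brightest probe set and grey lines for others. Both probe sets of Idh1 are lower with lipid A in both genotypes, while the step of Mdh1 from 18782 in WT vehicle to 10234 in KO vehicle is seen in the brightest probe set alone.

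Citrate synthase, which starts the cycle, was among the genes with higher signals in KO. Cs gave 5622, 5372, 6589 and 6634, so both KO arrays were above both WT arrays, by 1.17-fold under vehicle and 1.24-fold under lipid A, whereas lipid A made a difference of 1.05-fold in WT and 1.01-fold in KO. With arrays centred on their medians or on ribosomal protein genes, Cs was not higher in KO under vehicle, with -0.14 and -0.06 on the log2 scale.

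Of the oxoglutarate dehydrogenase complex, Ogdh encodes the first component and Dlst the second. Ogdh gave 2042.5, 2002, 2049.9 and 1636, with KO lipid A 1.25-fold below KO vehicle and the other three within a narrow range. A dimmer probe set of Ogdh gave 199, 122, 334 and 307 and had the genotype difference under lipid A in the opposite direction, at 2.51-fold higher in KO. Dlst gave 1913, 2359, 2235 and 2387, with the lowest signal in WT vehicle, and 1 of its 2 dimmer probe sets above the array medians had lipid A over vehicle in WT at -0.26 on the log2 scale, opposite to the 0.30 of the brightest.

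Succinyl-CoA ligase makes ATP or GTP from succinyl-CoA, with Sucla2 and Suclg2 for the nucleotide-specific subunits and Suclg1 for the shared one. In KO, all 3 genes were lower with lipid A, and the median log2 difference was -0.50, against -0.09 in WT, where all 3 were lower too. For all detected genes, the medians were -0.20 in KO and -0.08 in WT, and 60.6% and 56.5% were lower. Suclg1 gave 2764, 2267, 3235 and 2281, so that both lipid A arrays were below both vehicle arrays. Suclg2 gave 358, 353, 497 and 338, where KO vehicle was 1.39-fold above WT vehicle and the other three were close together. Sucla2 lay between 3651 and 4396, with its lowest signal in KO lipid A. With arrays centred on their medians, the median of the 3 genes in KO was -0.35 and 2 of them were lower.

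Complex II oxidizes succinate to fumarate and passes the electrons to ubiquinone. Its 4 genes were lower with lipid A in both genotypes, with a median of -0.20 in WT and -0.26 in KO, and this held for all 4 under each of the 3 other scalings. For all detected genes, the medians were -0.08 in WT and -0.20 in KO, and 56.5% and 60.6% were lower. The flavoprotein gene Sdha gave 5849, 5443, 6452 and 5464. Another probe set of Sdha gave 3104, 3023.5, 3658.5 and 2249.7, or 1.03-fold lower with lipid A in WT and 1.63-fold lower in KO. The iron-sulfur subunit gene Sdhb gave 6938, 6791, 7455 and 5460.5, where KO lipid A was 1.37-fold below KO vehicle and lipid A made a difference of 1.02-fold in WT. The membrane anchor gene Sdhc gave 2253, 1826, 2799.8 and 2292, lower with lipid A by 1.23-fold and 1.22-fold and higher in KO by 1.24-fold and 1.26-fold. The other anchor gene, Sdhd, gave 3847, 3145, 3380.3 and 2952, and a dimmer probe set of it gave 2035, 907, 886 and 595, or 2.24-fold lower with lipid A in WT. The latter probe set bears the mark for cross-hybridization with other genes.

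Fumarase, from Fh1, turns fumarate into malate, and the malate dehydrogenases make oxaloacetate. Fh1 gave 2360.0, 1695, 2637 and 2017, so both lipid A arrays were below both vehicle arrays, by 1.39-fold in WT and 1.31-fold in KO. Mdh2, the mitochondrial enzyme of the cycle, gave 12533, 16299, 14142 and 14636, with WT vehicle lowest, and lipid A over vehicle was 1.30-fold in WT and 1.03-fold in KO. Another probe set of Mdh2 gave 8337.5, 6929.7, 10989 and 8867 and went the opposite way, with log2 differences of -0.27 in WT and -0.31 in KO, so the direction depends on the probe set.

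Mdh1, the cytosolic enzyme of the malate-aspartate shuttle, gave 18782, 10254, 10234 and 8582. WT vehicle stood apart from the other three arrays, being 1.83-fold above WT lipid A and 1.84-fold above KO vehicle. This brightest probe set bears the mark for cross-hybridization, and the others did not show the same step. A further probe set with that mark gave 6692.5, 4148, 5789.7 and 4074, or 1.61-fold lower with lipid A in WT and 1.16-fold lower in KO under vehicle. The probe set without the mark gave 4392, 3799.7, 4858 and 4316, or 1.16-fold lower with lipid A in WT and 1.11-fold higher in KO under vehicle. Both calls of Mdh1 past 1.5-fold therefore depend on the choice of probe set, and its genotype difference under vehicle turns its direction.

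Complex I, which oxidizes NADH, is represented by 14 genes, most of them lower with lipid A. With lipid A, 12 of 14 were lower in WT with a median of -0.10 and 13 of 14 in KO with a median of -0.28, and 0 passed 1.5-fold in either. For all detected genes, the medians were -0.08 and -0.20, and 56.5% and 60.6% were lower. Under lipid A, 13 of 14 were lower in KO than in WT, with a median of -0.18, and under vehicle 8 of 14 with a median of -0.03. All detected genes had medians of -0.01 and 0.10 in these 2 comparisons, and 50.8% and 41.9% were lower. With arrays centred on their medians, the medians of the 14 genes were -0.30 and -0.12 for lipid A in WT and KO, and for the genotypes -0.40 under vehicle and -0.20 under lipid A. After quantile normalization the median under vehicle was 0.03. Ndufa4 is counted with these 14 by its name, although its product is now placed in complex IV.

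In the part of complex I that binds NADH and passes electrons on, Ndufv1 encodes the flavin-bearing subunit and gave 3996, 3737, 3468.5 and 2959, with its lowest signal in KO lipid A. Ndufv2, for an iron-sulfur subunit beside it, gave 6180, 5275, 5761 and 4904, and both lipid A arrays were below both vehicle arrays. Other probe sets of Ndufv2 were lower with lipid A in KO by 1.495-fold and 1.79-fold, the latter by a probe set marked for cross-hybridization. Ndufs1, for the largest iron-sulfur subunit, gave 1730, 1764, 1675.5 and 1545.5, with WT lipid A 1.02-fold above WT vehicle and KO lipid A 1.08-fold below KO vehicle. Ndufs3, a core subunit gene, gave 3029, 2821.5, 3129.9 and 2509.5. Ndufs4, an accessory subunit gene mutated in Leigh syndrome, gave 1670.1, 1987, 1629 and 1803 and was the 1 complex I gene whose brightest probe set was higher with lipid A in both genotypes. Of its 3 other probe sets at or above the array medians, 1 was higher in both genotypes and 2 were lower in both, by 1.30-fold and 1.19-fold in WT and 1.62-fold and 1.07-fold in KO, so its direction depends on the probe set.

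Among the other accessory subunits, Ndufb5 gave 6576, 5133, 5791 and 4157, the widest range of the 41 genes that stayed within 1.5-fold in each comparison. Ndufb8 gave 8353.5, 6787, 8176 and 6311, lower with lipid A by 1.23-fold in WT and 1.30-fold in KO. These 2 genes had both lipid A arrays below both vehicle arrays, as did Ndufa2, Ndufa4, Ndufa5, Ndufa8, Ndufa9 and Ndufb9 by their brightest probe sets. Ndufa5, Ndufa8 and Ndufb9 had smaller differences in WT, of 1.02-fold, 1.08-fold and 1.09-fold, and were lower with lipid A in KO by 1.33-fold, 1.28-fold and 1.30-fold. A dimmer probe set of Ndufa5 gave 1785, 1264, 1678 and 1534.5, or 1.41-fold lower in WT and 1.09-fold lower in KO. Which genotype had the larger difference of Ndufa5 therefore depends on the probe set. Ndufa2 was equal within rounding in WT and 1.26-fold lower in KO. Ndufa1, Ndufa4 and Ndufa9 were lower with lipid A in KO by 1.13-fold, 1.13-fold and 1.14-fold, and Ndufa1 spanned 24806 in KO lipid A to 30782 in WT vehicle.

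Complex III passes electrons from ubiquinol to cytochrome c, and its genes had no common direction with lipid A in KO. Of the 5 genes here, 4 were higher with lipid A in KO, with a median of 0.14, and 2 were higher in WT, with a median of -0.01. For all detected genes, the medians were -0.20 in KO and -0.08 in WT, and 60.6% and 56.5% were lower. The median of the 5 genes in KO was 0.08 after quantile normalization, with 3 of 5 higher, and 0.20 and 0.30 under the other scalings. Among the 5, the difference of Uqcrfs1 alone was above the SD between probe sets. The 4 further complex III genes on the arrays, named after their values were seen, were all lower with lipid A in KO, with log2 differences of -0.07 for Uqcrb, -0.20 for Uqcrh, -0.41 for Uqcr10 and -0.48 for Uqcr11. The Rieske iron-sulfur gene Uqcrfs1 gave 4301, 4141, 3459 and 4447, so that KO vehicle was lowest and the KO response was 1.29-fold higher. Uqcrc2, for a core protein, gave 6093.5, 5555, 4779 and 5378, again lowest in KO vehicle. Uqcrc1, for the partner core protein, went opposite, with 4924.5, 5566, 6386 and 6085, lowest in WT vehicle and 1.30-fold higher in KO vehicle. Cyc1, for cytochrome c1, gave 4387, 4343, 4089.6 and 4518, and Uqcrq gave 8334, 8971, 8173 and 8683, ranges of 1.10-fold that were the narrowest of the 44 genes. None of these differences reached 1.5-fold.

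Complex IV reduces oxygen, and the 5 genes here encode nuclear subunits around its mitochondrial core. Cox4i1 gave 21319, 18625, 20535 and 16921, and both lipid A arrays were below both vehicle arrays, by 1.15-fold and 1.21-fold. Cox5a gave 32938, 28314, 26308 and 23347, lower with lipid A in both genotypes and lower in KO under both treatments, by 1.25-fold and 1.21-fold. Another probe set of Cox5a gave 21956, 22123, 22827 and 20190, and was not lower with lipid A in WT or in KO under vehicle. By their brightest probe sets, Cox5b, Cox6c and Cox7a2 differed by at most 1.15-fold over the 4 arrays, with lowest signals of 18958, 15682 and 22301. Another probe set of Cox6c gave 16729, 11999, 11899 and 10640. It was 1.39-fold lower with lipid A in WT and 1.41-fold lower in KO under vehicle, so the narrow range of Cox6c depends on the probe set. Of ATP synthase, Atp5a1 encodes the alpha and Atp5b the catalytic beta subunit of the soluble head. Atp5a1 gave 9538, 9203, 10352 and 9267. Atp5b gave 17986, 17319, 15148 and 16239, lowest in KO vehicle, while Atp5a1 was highest there. The plot by enzyme and complex shows the genes of each group around the medians.

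**Figure D4:**
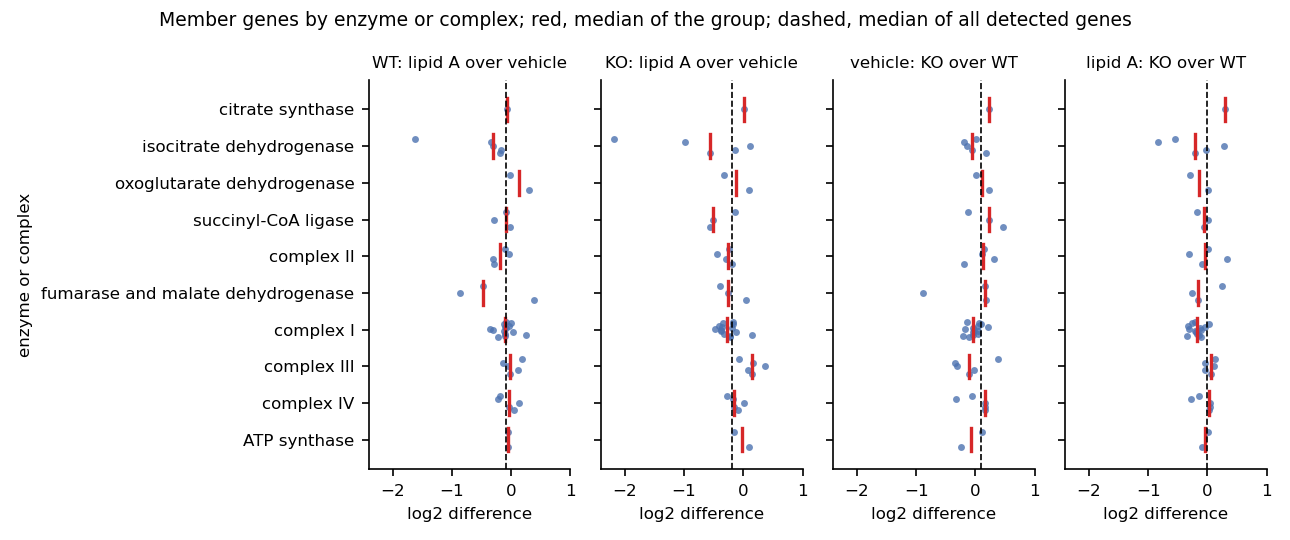
Log2 difference of signal for each of the 44 genes (blue points), grouped by enzyme or complex (rows), in 4 comparisons (panels), with the median of each group as a red bar and the median of all detected genes as a dashed line. In KO with lipid A, 13 of 14 complex I genes lie left of 0, with a median of -0.28, and 4 of the 5 plotted complex III genes lie right of it, with a median of 0.14.

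The lipid A responses of the genotypes share no array, and their difference was taken gene by gene. The KO response was below the WT response for 32 of the 44 genes, or 72.7%, with a median of -0.11, while it was below for 56.5% of the 10870 genes detected in both, with a median of -0.09. With arrays centred on their medians the median of the 44 genes was 0.24, so its direction depends on the scaling.

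Few other genes of the same complexes, from lists that exclude the 44, passed 1.5-fold. Of all detected genes, 18.2% were over 1.5-fold higher and 18.9% lower with lipid A in WT, and 17.7% and 29.7% in KO. Their median log2 differences were -0.08 in WT and -0.20 in KO. Of 20 further complex I genes, 0 were over 1.5-fold higher and 1 was lower in WT with lipid A, Ndufb4, whose lower signal was below the array median. In KO, 3 were lower and 1 was higher, again Ndufb4, at least 1.27-fold from a vehicle signal below the array median, with medians of -0.11 in WT and -0.38 in KO. Ndufs7 gave 4703, 4503, 5515 and 3376 and was 1.63-fold lower in KO, Ndufb10 1.55-fold and Ndufv3 1.51-fold. Between the genotypes under vehicle, Ndufs8, for an iron-sulfur subunit, gave 5923 in WT and 10359 in KO and was 1.75-fold higher, by a probe set marked for cross-hybridization. Of 10 further genes of complex III, complex IV and cytochrome c, the medians were -0.08 in WT and -0.21 in KO, and 1 passed 1.5-fold in each, Cox7c, which was at least 1.99-fold and at least 2.30-fold lower against the array median. Its probe set gave only 149, 71.7, 174 and 74.9, close to the array medians, where a fold carries little information about the transcript. Of 14 further ATP synthase genes, 0 passed in WT and 1 in KO, Atp5c1, with 17030, 15182, 17709 and 11734. Medians of the last list were -0.13 in WT and -0.32 in KO.

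Among genes that assemble the complexes, the share past 1.5-fold was larger, though below that of all detected genes in both directions. Of 32 detected assembly factors, 2 were over 1.5-fold higher and 2 lower with lipid A in WT, and 3 higher and 7 lower in KO. In KO, Ecsit, which takes part in complex I assembly and in TLR signaling, gave 326 with vehicle and 137 with lipid A, or 2.38-fold lower. The complex I factor Ndufaf7 was 1.96-fold lower and the complex II factor Sdhaf4 1.71-fold lower, while Ttc19, for complex III, was 1.91-fold higher. Of 11 genes of ubiquinone synthesis, 0 were higher and 1 was lower in WT, and 2 were higher and 3 lower in KO. Shares over all detected genes were 18.2% higher and 18.9% lower in WT, and 17.7% higher and 29.7% lower in KO. Coq10a and Coq9 were 2.29-fold and 2.13-fold lower in KO, Coq10b was 1.81-fold higher, and Coq8a was at least 1.41-fold higher from a vehicle signal below the array median.

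At the entry to the cycle, pyruvate is carried into mitochondria and made into acetyl-CoA by pyruvate dehydrogenase, which the kinases of the Pdk family inhibit. With lipid A, 1 of 11 detected genes was over 1.5-fold higher and 2 were lower in WT, and 2 of 10 were higher and 2 lower in KO. All detected genes had shares of 18.2% higher and 18.9% lower in WT, and 17.7% and 29.7% in KO. Pdk1 gave 414, 213, 685 and 140.4 and was 1.94-fold lower in WT and 4.88-fold lower in KO, and 2 further probe sets of it were lower by 1.78-fold and 1.34-fold in WT and by 1.82-fold and 1.56-fold in KO. Dld, for the dehydrogenase component that pyruvate and oxoglutarate dehydrogenase share, gave 1724, 2623, 1857 and 3360.3, higher by 1.52-fold and 1.81-fold. In KO, the phosphatase gene Pdp1 was 1.83-fold lower and Pdk3 1.68-fold higher. Mpc1, a subunit of the mitochondrial pyruvate carrier, gave 12882, 12459, 6943.5 and 8653, lower in KO by 1.86-fold under vehicle and 1.44-fold under lipid A.

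Around the cycle, the largest difference was that of Acod1, which makes itaconate from cis-aconitate. Its signals were 3839, 48030, 51.4 and 49220. Lipid A over vehicle was 12.5-fold in WT and at least 585-fold in KO, whose vehicle signal was below the array median. Under vehicle it was at least 45.6-fold lower in KO, while the lipid A arrays differed by 1.02-fold. D2hgdh, which turns D-2-hydroxyglutarate into 2-oxoglutarate, was 1.30-fold lower in WT and 2.02-fold lower in KO, and the citrate-cleaving enzyme gene Acly was 1.25-fold and 1.62-fold lower. Aco1, the cytosolic aconitase that also binds iron-responsive RNA elements, gave 9429, 5970.5, 6923 and 4637, and a probe set without the cross-hybridization mark gave 1124, 1001.5, 1283 and 889.5. In this list, 1 gene was over 1.5-fold higher and 1 lower of 14 detected in WT, and 1 higher and 2 lower of 13 in KO. Shares over all detected genes were 18.2% and 18.9% in WT, and 17.7% and 29.7% in KO.

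Of 15 regulators of mitochondrial biogenesis and mitochondrial DNA, 1 was over 1.5-fold higher and 4 lower with lipid A in both genotypes. With both signals at or above the array medians, 3 were lower in WT and 2 in KO. Beside the counts of this and the next lists, 18.2% of all detected genes were over 1.5-fold higher and 18.9% lower in WT. In KO the shares were 17.7% and 29.7%. Ppargc1b, a coactivator of genes for oxidative metabolism, gave 648, 277, 333 and 34.3, or 2.34-fold lower in WT and at least 4.40-fold lower in KO. Its relative Ppargc1a gave 72.4, 10.2, 174 and 55.2, or at least 2.30-fold lower in KO. In WT, the median of the lipid A array, 74.8, was above its vehicle signal, so no fold is given. Twnk, the mitochondrial DNA helicase, was 2.36-fold and 2.33-fold lower, Polg2, a subunit of the mitochondrial DNA polymerase, 1.56-fold and 2.43-fold lower, and Gabpb1, a subunit of GABP, 2.02-fold and 2.17-fold higher. Of 74 mitochondrial ribosome genes, 1 was higher and 4 lower in WT, and 2 higher and 7 lower in KO, where Mrpl41, Mrpl42 and Mrpl38 were lower by 2.01-fold, 1.97-fold and 1.78-fold and Mrps18b was 1.84-fold higher. Of 15 glycolysis genes, 0 were higher and 1 was lower in WT, and 2 were higher and 6 lower in KO, with a median of -0.53. There, Hk2 was 2.46-fold higher, Pfkfb3 2.57-fold lower, Tpi1 2.34-fold lower and Pfkm 2.00-fold lower. Of 42 cytosolic ribosomal protein genes, 1 was higher and 0 were lower in WT and 1 was higher and 1 lower in KO. Isoforms of the chain known from muscle and testis were detected for 5 of 8 genes in WT and 4 of 8 in KO, with 2 higher and 1 lower in WT, all of them against a signal below the array median, and 0 in KO.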

How the data were processed

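RNA of 4 conditions, WT and KO macrophages with vehicle or lipid A, was measured on 1 array each. The authors deposited 1 table of probe set intensity as a linear signal, and for the software that made it, nothing was given in the sources used here. An equal trimmed mean of 500.004 on the 4 arrays points to a scaling of each whole array, which affects differences between arrays. The detection and increase calls that the study's methods name were not used here. Columns of other samples numbered 0.

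Of 45101 probe sets, 64 controls were left out. The platform annotation supplied for this work gives 1 symbol for 34945 of the rest, several for 932 and none for 9160. Symbols of the 44 genes were found in RefSeq by gene number for all 44. Of the 44 genes, 15 had 1 probe set and 29 had more. Signals were log2-transformed, and the brightest probe set of a gene was kept. The 44 genes and 18 further lists with 369 genes, 6 of them cell markers, were chosen with earlier results of these data known. Named were all 44 genes, Setdb1, and from each list at most 4 detected genes, those that differed most in the comparison at hand. Where a signal did not reach the median of its array, the fold was taken against that median and is given as at least. No fold is given where that median lay beyond the other signal. No p-value was computed, and the counts past a fold have no test. The counting step alone was checked on simulated signals with known differences. Alternatives were other scalings, filters, probe set rules and fold thresholds. Python 3.11.15, numpy 2.4.6, pandas 2.3.3, SciPy 1.17.1 and matplotlib 3.10.9 were used.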

Additional observations from a re-analysis of the deposited data

Results flagged for a closer look

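In 9 of the 44 genes the lipid A response had opposite signs in WT and KO, each array pair giving 1 value, and the difference between the genotypes was not tested. The share of all detected genes with opposite signs was not computed, so this count has no background beside it. On the log2 scale, the KO response minus the WT response was 0.075 for Cs, 0.422 for Idh3a, 0.304 for Uqcrc2, 0.417 for Uqcrfs1, 0.159 for Cyc1 and 0.155 for Atp5b, where the gene was higher with lipid A in KO and lower in WT. It was -0.145 for Ndufs1, -0.246 for Uqcrc1 and -0.134 for Cox7a2, where it was lower in KO and higher in WT. The largest single response among these genes was 0.36 in size, that of Uqcrfs1 in KO, so all of them stayed below 1.5-fold. Both responses of Cs, Ndufs1 and Cox7a2 lay within the SD between probe sets, 0.25 in WT and 0.23 in KO. The 2 dimmer probe sets of Cs were higher with lipid A in both genotypes. With arrays centred on their medians, the signs swapped for Ndufs1, at -0.172 in WT and 0.035 in KO, and for Uqcrc1, at -0.023 and 0.082. Of the 9 genes, Uqcrc1, Uqcrc2, Uqcrfs1 and Cyc1 belong to complex III, and such signs depend on the probe set and the scaling.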

How the results depend on the processing

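No paired analysis was possible because each condition has 1 array, and leaving out an array leaves no comparison. Requiring both arrays to reach their medians, or using no filter, changed none of the 13 medians and counts of the 44 genes. Neither could change them, because the lowest signal of the 44 genes, 283.9, was above all array medians, so this is no check. Centred on the median of all probe sets, the medians were -0.295 for lipid A in WT (-0.096 by the deposited scaling), -0.037 for lipid A in KO (-0.189) and, between the genotypes under vehicle, -0.364 (0.007), the median difference of the responses was 0.24 (-0.112), and 5 genes were over 1.5-fold lower in KO under vehicle (Mdh1, Uqcrc2, Uqcrfs1, Cox5a and Atp5b). Quantile normalization gave -0.308 for lipid A in KO. Centred on ribosomal protein genes, KO over WT was -0.28 under vehicle with 4 genes lower, and -0.332 under lipid A with 2 lower, Idh1 and Idh2. The 2 centrings move all genes of an array alike by construction. Quantile normalization does not, and under it the median of the 44 genes minus that of all detected genes for lipid A in KO was -0.172 against 0.009 by the deposited scaling, and in WT -0.073 against -0.014; the cause was not tested.

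With the median over all probe sets of a gene, dim ones included, 1 gene was over 1.5-fold higher and 5 lower with lipid A in WT, 1 higher and 4 lower in KO, 2 lower in KO under vehicle and 2 higher in KO under lipid A. Limited to a mean signal of at least 500, which leaves out Idh2, 1 gene was lower with lipid A in KO and 0 were lower in KO than in WT under lipid A. Over 2-fold, 1 gene was lower with lipid A in WT and 1 in KO, Idh1 in both, and 0 between the genotypes under either treatment. Leaving out probe sets marked for cross-hybridization, an alternative added after the probe sets of Mdh1 were seen, left 1 gene lower in WT and 0 in KO under vehicle, and turned the KO over WT difference of Mdh1 under vehicle from -0.876 to 0.145. Idh1 was over 1.5-fold lower with lipid A in both genotypes under every alternative run. Precision is limited by 1 array for each condition, and signals near the array median carry little information about a fold.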
